A study of Mus musculus with 10 samples.

Results

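The mature miRNAs of the miR-143 and miR-145 cluster were examined in sEVs from mouse heart, the small vesicles bounded by a membrane that cells shed. They were chosen by name, as the rows of the deposited table whose identifiers begin with mmu-miR-143- or mmu-miR-145a-. This gave 4 of 733 rows, which were mmu-miR-143-3p, mmu-miR-143-5p, mmu-miR-145a-5p and mmu-miR-145a-3p. The HFD plus L-NAME group held 5 libraries from male C57BL/6J mice that entered the regimen at 8 weeks of age. For 12 weeks these animals were fed a 60% fat diet and drank water with 0.5 g/L of L-NAME, which inhibits nitric oxide synthase. The labels call the regimen a model of HFpEF, a form of heart failure in which the ventricle fills poorly although it still ejects well. The control group held 5 libraries from male mice on standard chow. The title of the series names cardiomyocytes as the source of the vesicles, whereas by the protocol they came from collagenase-digested heart tissue and can stem from any cell in it. A lower level can therefore mean fewer vesicles from a cell type or less of a miRNA per vesicle, which cannot be told apart here.

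miR-143 and miR-145 are the best known miRNAs of smooth muscle. Both are cut from 1 primary transcript, whose transcription is driven by serum response factor and its coactivator myocardin. They are abundant in vascular smooth muscle and pericytes, where they favour the contractile state by repressing factors such as Klf4, Klf5 and Elk1. Each hairpin precursor gives 2 arms, of which one usually stays in the silencing complex (the guide) while the other (the passenger) is mostly degraded. In the GENCODE M21 annotation of GRCm38, Mir145a lies on chromosome 18 from 61647825 to 61647894 and Mir143 from 61649196 to 61649258, both on the minus strand and 1301 bases apart. Both stand there as separate miRNA genes, with the long noncoding RNA gene Carmn ending 366 bases upstream of Mir143 on the same strand.

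The libraries held 250807 to 338530 miRNA counts with HFD plus L-NAME and 238434 to 420828 counts in control. Levels are given below as CPM, counts scaled to a common total of miRNA counts, after TMM normalization, which adjusts each library's total so that most miRNAs do not differ between libraries. The 5 cardiomyocyte marker miRNAs took 31.1% to 46.6% of counts with HFD plus L-NAME and 26.1% to 33.8% in control, and each of the 5 was detected. Most of this was miR-1a-3p, and of the 4 that were tested, 2 had higher values (miR-1a-3p and miR-208a-3p) and 2 lower (miR-133a-3p and miR-499-5p). Control 1 stood apart in several of the measures below, and results that rest on it are given with and without it. Whether 1 mouse or several stand behind a library is not in the labels, and the tests therefore weigh differences only against library-to-library spread, which may be partly technical.

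The cluster was dominated by a single arm. Of all cluster counts, miR-143-3p held 88.8% to 94.5% with HFD plus L-NAME (median 92.3%) and 92.9% to 97.7% in control (median 94.4%). It ranked 6 by mean level among the 177 miRNAs that passed the filter on low counts, at 40612 ± 10557 CPM over the 10 libraries. Its neighbours in that order were miR-26a-5p above, at 48822 ± 11983 CPM, and miR-99a-5p below, at 34949 ± 7118 CPM. The guide of miR-145 was far less abundant, with miR-145a-5p at rank 37 and 2490 ± 637 CPM, between miR-151-5p at 2710 ± 498 CPM and miR-181c-5p at 2356 ± 363 CPM. The passenger arm miR-145a-3p stood at rank 133 and 77.3 ± 14.0 CPM, with miR-3074-2-3p (77.7 ± 22.4 CPM) and miR-103-3p (75.8 ± 29.8 CPM) beside it. Each member differed from its neighbour above and below by less than 1 SD, whereas the ranges of the 3 cluster members do not meet. Ligation and amplification differ between sequences, so a ratio of counts is not a ratio of molecules.

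The fourth row, miR-143-5p, the passenger arm of Mir143, was almost absent. It had 1 count in HFD plus L-NAME 1 and 0 counts in the other 4 HFD plus L-NAME libraries and in all 5 control libraries. A count of 0 allows up to 8.86 to 12.0 CPM in those HFD plus L-NAME libraries and 7.13 to 12.6 CPM in the control libraries (3 counts over the total, counting error only). It did not pass the filter and was not tested.

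With HFD plus L-NAME the values of miR-143-3p were lower in all 5 libraries than in any control library, but the difference did not pass the adjusted threshold by edgeR, and for both arms of miR-145a the groups overlapped. In TMM-normalized CPM, miR-143-3p stood at 30988, 35752, 37759, 34672 and 26319 in HFD plus L-NAME libraries 1 to 5, against 64047, 42228, 48219.5, 40126 and 46015 in control libraries 1 to 5. Each HFD plus L-NAME library lay below each control library, and control 1 was the highest of the 10. Such a separation in this direction was seen in 4 of the 177 tested miRNAs (2.26%). The means were 33098 ± 4518 CPM with HFD plus L-NAME and 48127 ± 9444 CPM in control (SD, n = 5 each).

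By edgeR's quasi-likelihood test the log2 fold change of miR-143-3p was -0.54 ± 0.17 (SE), with an adjusted p of 0.172 (0.00639 unadjusted) against a threshold of 0.05. Without control 1 it was -0.42 ± 0.15, with an adjusted p of 0.173 by edgeR. Among the 177 miRNAs, 0 (0%) passed by edgeR, where 28 had an unadjusted p under 0.05. The other tools passed 3 (DESeq2, Wald test) and 0 (limma). Those 3 were miR-125b-5p, miR-499-5p and miR-23a-3p, each lower with HFD plus L-NAME (adjusted p by DESeq2's Wald test 0.0362, 0.00492 and 0.04655). Of the 28, 15 (8.47% of those tested) were lower with HFD plus L-NAME, miR-143-3p among them. The median log2 fold change of all 177 was -0.02. DESeq2's Wald test gave miR-143-3p an adjusted p of 0.0800 over the 177, and 0.0486 when its independent filter, added after seeing the data, left fewer miRNAs to adjust over. Over all alternatives the adjusted p of miR-143-3p lay between 0.0486 and 0.410.

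**Figure D1:**
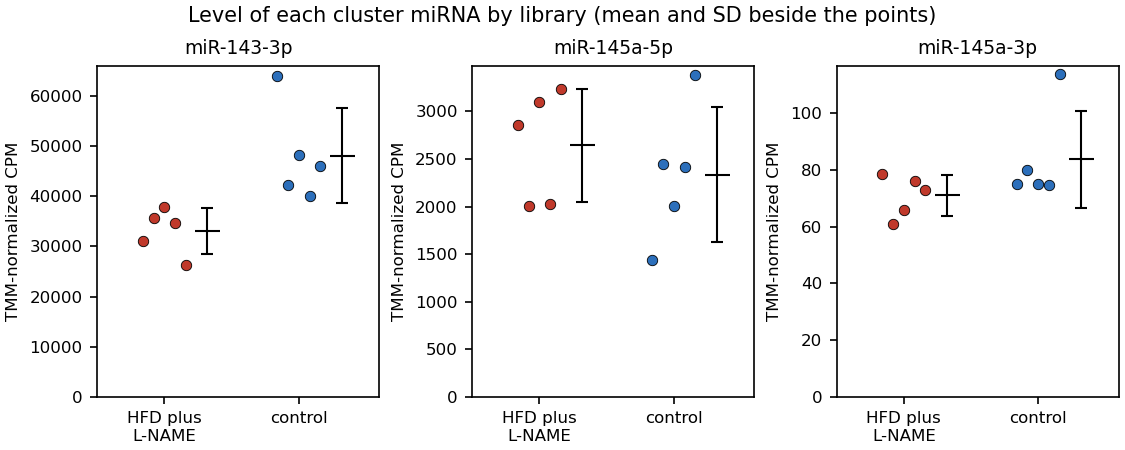
TMM-normalized CPM (y axes, from 0) of miR-143-3p, miR-145a-5p and miR-145a-3p in each library, with HFD plus L-NAME left of control. Points are libraries, and the bar beside them is the mean with SD (n = 5). For miR-143-3p all HFD plus L-NAME points (26319 to 37759 CPM) lie below all control points (40126 to 64047 CPM), while the groups overlap for both arms of miR-145a.

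The separation depended on the scale. As a share of all miRNA counts it took 3.38%, 3.09%, 4.01%, 3.37% and 2.59% in HFD plus L-NAME libraries 1 to 5, against 6.87%, 4.14%, 4.41%, 4.12% and 4.75% in control libraries 1 to 5. The groups again lay apart. The exact 95% binomial intervals of the closest pair were 3.94% to 4.09% in HFD plus L-NAME 3 and 4.05% to 4.18% in control 4, which overlap. On the second deposited value, taken here as RPM (scaled to all reads) although the files name no unit, miR-143-3p averaged 396 ± 93.7 with HFD plus L-NAME and 750 ± 307 in control, and the groups overlapped. HFD plus L-NAME 4 held 522 assumed RPM on that scale and control 5 held 465.

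The guide arm of miR-145a follows. In TMM-normalized CPM, miR-145a-5p stood at 2855, 2004, 3095, 2024 and 3238 in HFD plus L-NAME libraries 1 to 5, against 1436, 2448, 2007, 2413 and 3378 in control libraries 1 to 5. The groups overlapped over most of their range, and both the lowest and the highest library were controls. The means were 2643 ± 590 CPM with HFD plus L-NAME and 2336 ± 711 CPM in control (SD, n = 5 each). The log2 fold change was 0.18 ± 0.23 (SE) with an adjusted p of 0.812 by edgeR, and 0.05 ± 0.21 without control 1. Scaled to the recovered read totals it was -0.14 ± 0.25, and the median of all tested miRNAs was then -0.37, so its sign depends on the scaling. Relative to that median it was 0.23, against 0.20 with TMM.

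The passenger arm miR-145a-3p rested on few reads. It had 23, 15, 20, 25 and 18 counts in HFD plus L-NAME libraries 1 to 5, against 32, 33, 21, 27 and 28 counts in control libraries 1 to 5. In TMM-normalized CPM these were 78.6, 61.0, 66.0, 76.1 and 72.9 with HFD plus L-NAME, against 74.8, 79.9, 75.0, 74.7 and 114 in control. HFD plus L-NAME 1 and 4 lay among the control libraries, and control 5 lay above all others. The log2 fold change was -0.23 ± 0.26 (SE) with an adjusted p of 0.766 by edgeR, and -0.10 ± 0.28 without control 5. The exact 95% Poisson interval of the lowest count, 15 in HFD plus L-NAME 2, ran from 8.40 to 24.7 counts. The coefficient of variation between libraries was 10.3% with HFD plus L-NAME and 20.3% in control, where counting error alone gives 22.6% and 19.1%. For miR-143-3p libraries varied by 13.7% with HFD plus L-NAME and 19.6% in control, where counting error gives 1.05% and 0.806%. For miR-145a-5p they varied by 22.3% with HFD plus L-NAME and 30.4% in control, where counting error gives 3.75% and 3.67%.

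Both guides come from 1 primary transcript, and a ratio of their counts within a library does not depend on library size. The ratio of miR-143-3p to miR-145a-5p was 10.9, 17.8, 12.2, 17.1 and 8.13 counts per count in HFD plus L-NAME libraries 1 to 5, against 44.6, 17.3, 24.0, 16.6 and 13.6 in control libraries 1 to 5. The 3 lowest ratios were HFD plus L-NAME libraries and the highest 2 were control 1 and control 3, but in between the groups overlapped. Over all 10 libraries it ran from 8.13 to 44.6. On the log2 scale the mean was 3.67 ± 0.47 with HFD plus L-NAME and 4.40 ± 0.67 in control (SD, n = 5 each), a difference of -0.73 ± 0.37 (SE). The exact two-sided permutation p was 0.0714, and 0.161 after Benjamini-Hochberg adjustment over the 9 ratios computed. The 95% interval from inverting the exact test ran from -1.56 to 0.04, so it holds an equal ratio as well as much lower ones. Without control 1 the difference was -0.46 (exact permutation p = 0.143).

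**Figure D2:**
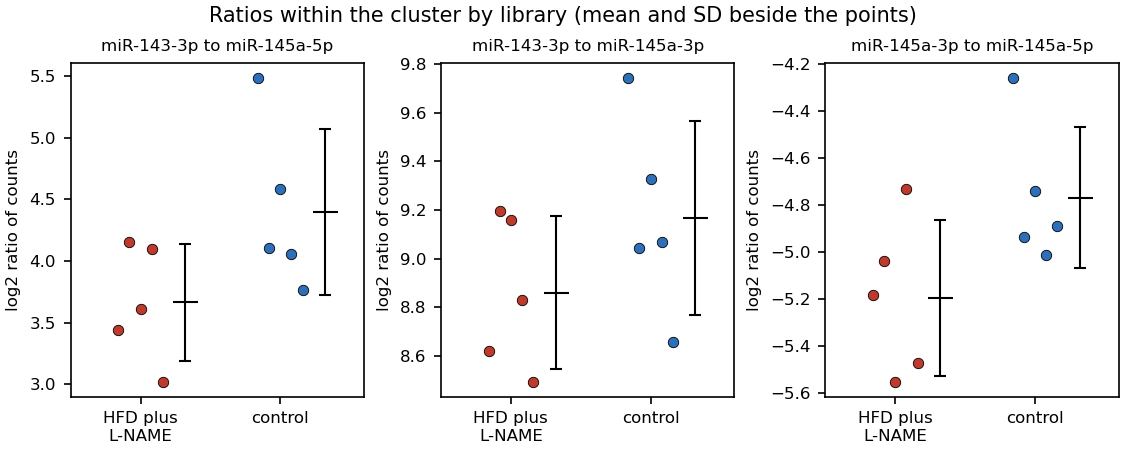
Log2 ratios of counts (y axes) within the cluster in each library, with HFD plus L-NAME left of control. Points are libraries, and the bar beside them is the mean with SD (n = 5). In all 3 panels the HFD plus L-NAME mean is the lower one and the groups overlap, and control 1 is the highest point in each.

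The 2 arms of miR-145a come from 1 hairpin. The ratio of miR-145a-3p to miR-145a-5p was 0.0275, 0.0304, 0.0213, 0.0376 and 0.0225 in HFD plus L-NAME libraries 1 to 5, against 0.0521, 0.0326, 0.0374, 0.0310 and 0.0337 in control libraries 1 to 5. Only HFD plus L-NAME 4 reached the range of the control libraries. The log2 difference was -0.43 ± 0.20 (SE), with an exact two-sided permutation p of 0.0714, 0.161 after adjustment over the 9 ratios, and a 95% interval from -0.91 to 0.02. Without control 1 it was -0.30 (exact permutation p = 0.143). The ratio of miR-143-3p to miR-145a-3p differed by -0.31 ± 0.23 (exact permutation p = 0.214, adjusted 0.321, interval -0.84 to 0.17), and by -0.16 without control 1. Of these 3 ratios within the cluster, 0 passed the threshold.

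Each member was also set against 2 marker miRNAs of other heart cells. These ratios depend on the partner, since some other markers of the same cells had log2 fold changes of the other sign. Of the endothelial markers, miR-126a-3p was at -0.32 and miR-126a-5p at 0.40. Of the cardiomyocyte markers, miR-1a-3p was at 0.48 and miR-208a-3p at 0.63, while miR-133a-3p was at -0.19 and miR-499-5p at -0.60. The first partner, miR-126a-3p, is abundant in endothelial cells, which line the same vessels. The ratio of miR-143-3p to it was 0.620, 0.500, 0.577, 0.656 and 0.686 in HFD plus L-NAME libraries 1 to 5, against 1.00, 0.699, 0.582, 0.573 and 0.651 in control libraries 1 to 5. Apart from control 1 the groups lay in the same range, and the log2 difference was -0.18 ± 0.17 (SE; exact permutation p = 0.357, adjusted 0.459), or -0.05 without control 1. The ratio of miR-145a-5p to miR-126a-3p differed by 0.55 ± 0.34 (exact permutation p = 0.151, adjusted 0.271), or 0.34 without HFD plus L-NAME 5, and that of miR-145a-3p by 0.12 ± 0.25 (exact permutation p = 0.635, adjusted 0.635).

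The second partner, miR-1a-3p, is the miRNA of heart and skeletal muscle and was the most abundant in these libraries. The ratio of miR-143-3p to it was 0.111, 0.0880, 0.146, 0.103 and 0.0593 in HFD plus L-NAME libraries 1 to 5, against 0.321, 0.139, 0.157, 0.184 and 0.225 in control libraries 1 to 5. HFD plus L-NAME 3 alone reached above a control library, control 2. The log2 difference was -1.01 ± 0.30 (SE), with an exact permutation p of 0.0159 and an adjusted p of 0.143 over the 9 ratios, where the smallest unadjusted p of the design is 0.00794. Without control 1 this difference was -0.83, as it was without HFD plus L-NAME 5. The difference was -0.28 ± 0.34 for miR-145a-5p (exact permutation p = 0.444, adjusted 0.500; from -0.44 without HFD plus L-NAME 3 to -0.07 without control 5) and -0.70 ± 0.28 for miR-145a-3p (exact permutation p = 0.0397, adjusted 0.161). In TMM-normalized CPM, miR-126a-3p averaged 55623 ± 13103 with HFD plus L-NAME and 69593 ± 8585 in control, and miR-1a-3p 344900 ± 79830 with HFD plus L-NAME and 246670 ± 54305 in control (SD, n = 5 each). Their adjusted p by edgeR was 0.398 and 0.225.

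The cluster was also taken as a share of counts, with and without miR-1a-3p. The 4 cluster rows together took 2.92% to 4.35% of miRNA counts with HFD plus L-NAME (median 3.57%) and 4.37% to 7.03% in control, with no overlap. With miR-1a-3p left out of the total they took 5.05% to 5.99% with HFD plus L-NAME and 5.64% to 8.94% in control, and the groups overlapped. The difference in means was -1.54 percentage points with miR-1a-3p in the total and -1.37 without it. It was -1.06 percentage points without control 1.

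No positive relation between the levels of the 2 guides was measured across libraries. Between miR-143-3p and miR-145a-5p, Pearson's r of log2 TMM-normalized CPM over the 10 libraries was -0.60 and Spearman's rho was -0.37 (permutation p = 0.0620 and 0.296, and 0.186 and 0.448 after adjustment over 3 pairs). Without HFD plus L-NAME 5 and control 1, the libraries farthest from the median of miR-143-3p, r was 0.03, so the negative relation rests on those 2 libraries. Without TMM, r was -0.35 and rho -0.13 (permutation p = 0.339 and 0.733). Taken as deviations from the group means, r was -0.65 (exact permutation within groups, p = 0.0716). Between miR-143-3p and miR-145a-3p r was 0.25 and rho 0.27 (permutation p = 0.459 and 0.448). Between the arms of miR-145a r was 0.37 and rho 0.28 (permutation p = 0.286 and 0.427). With the 2 libraries farthest from the median left out r was 0.44 and 0.08 for these pairs, and without TMM it was 0.41 and 0.52. In deviations from the group means it was -0.26 and 0.61. None of the 3 pairs passed the threshold, and all 3 share the library totals in their scale.

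**Figure D3:**
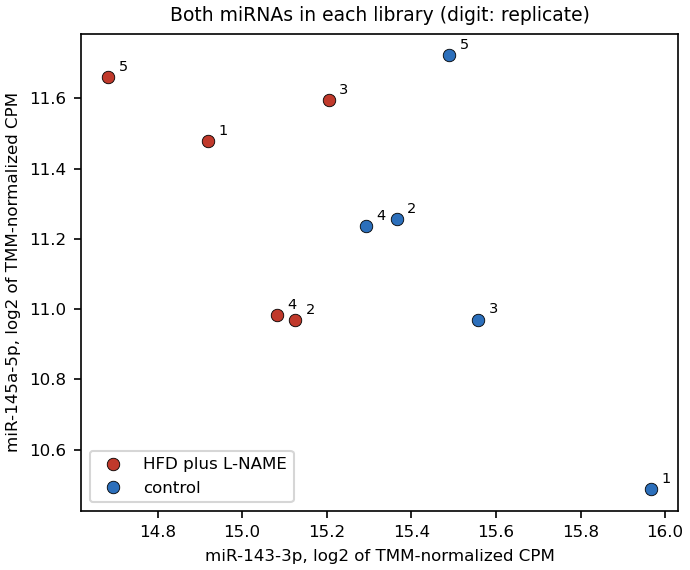
Log2 TMM-normalized CPM of miR-143-3p (x axis) against miR-145a-5p (y axis), 1 point per library, with the replicate digit beside it. Control 1 sits alone at the highest miR-143-3p and the lowest miR-145a-5p, and HFD plus L-NAME 5 at the lowest miR-143-3p with a high miR-145a-5p. Without these 2 libraries Pearson's r is 0.03 in place of -0.60.

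To place the ratio of the 2 guides, other miRNAs whose precursors lie within 5000 bases of each other on the same strand were listed after seeing the data, each with its more abundant arm among those whose name points to 1 precursor alone. For copied precursors, whose major arm is shared between copies, this was the minor arm (let-7a-1-3p, let-7c-2-3p and miR-24-2-5p), which holds for 4 of the pairs below. Ratios had 1 count added to both miRNAs. Pairs were found by matching miRNA names to names of annotated genes, so the list may not be complete. For example, it lacks miR-195a-5p with miR-497a-5p, whose log2 fold changes were 0.89 ± 0.35 and 0.03 ± 0.24 (SE). Beside the cluster it held 15 pairs of 27 miRNAs, some of which enter 2 pairs. Their absolute log2 difference between HFD plus L-NAME and control had a median of 0.30 and reached 1.62, and the groups lay apart in 0 of them, nor did they in the cluster pair. Among the pairs found, the cluster's 0.73 was second to let-7d-5p against let-7a-1-3p. That ratio had an SD of 2.29 with HFD plus L-NAME and 2.61 in control. Its second member is such a minor arm, at 0 to 119 CPM. In HFD plus L-NAME 2 and 5 and control 1, 2 and 5, let-7a-1-3p was at 0 to 4.05 CPM and let-7c-2-3p at 63.1 to 150. In the other libraries let-7a-1-3p was at 60.7 to 119 CPM and let-7c-2-3p at 0 to 6.84. The 1.62, and the cluster's place behind it, may depend on which of these names the reads were given, which was not tested. After the cluster pair came miR-451a against miR-144-3p, both of red blood cells, at 0.70. It was the largest of the 11 pairs found without a minor arm of that kind. Without control 1, and without the added count, the cluster's difference was -0.46. The other pairs were not recomputed without control 1, so the rank holds for all 10 libraries only. Pearson's r within the 15 pairs ranged from -0.52 to 0.67, with a median of 0.18, against -0.60 for the cluster pair. For the cluster pair r was 0.03 without HFD plus L-NAME 5 and control 1. These values are a description of shared libraries and carry no test.

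**Figure D4:**
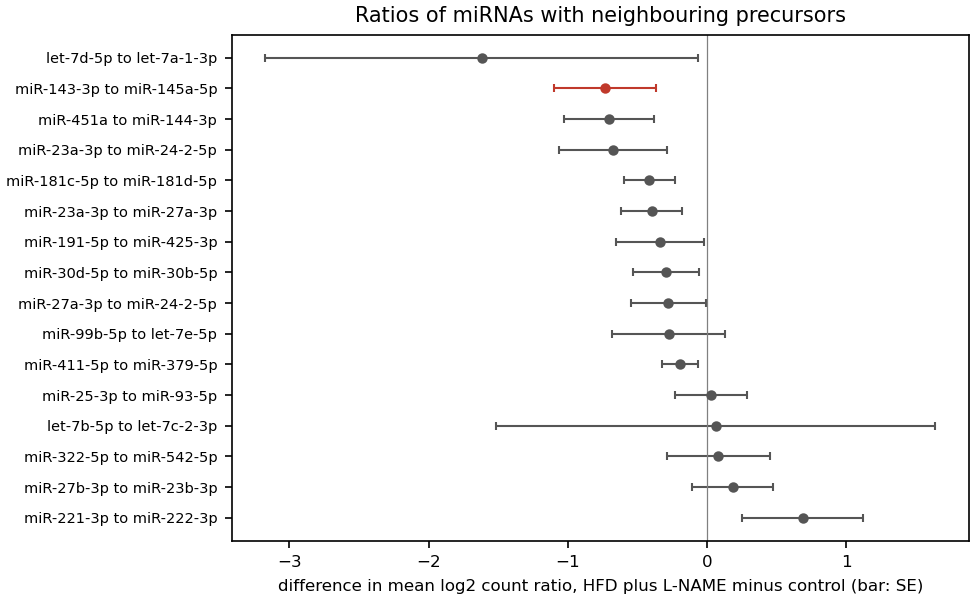
Difference in mean log2 count ratio, HFD plus L-NAME minus control (x axis, bars are SE, n = 5 each), for 16 pairs of miRNAs with neighbouring precursors (y axis), the cluster pair in red. The arms let-7a-1-3p, let-7c-2-3p and miR-24-2-5p are the minor arms of copied precursors. Values of the first 2 may depend on which of their names the reads were given, which was not tested. The cluster pair lies at -0.73, between the let-7 pair at -1.62 with its wide bar and miR-451a against miR-144-3p at -0.70.

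The miRNAs whose levels were most like that of miR-143-3p over the 10 libraries were named by Pearson's r of log2 TMM-normalized CPM, without a test. They were miR-499-5p (r 0.84, rho 0.89), miR-151-5p (0.79 and 0.47), miR-3074-2-3p (0.76 and 0.79), miR-34a-5p (0.74 and 0.72) and miR-23a-3p (0.71 and 0.73). In deviations from the group means r was 0.49 for miR-499-5p and 0.01 for miR-23a-3p, against 0.66, 0.60 and 0.72 for miR-151-5p, miR-3074-2-3p and miR-34a-5p. Both miR-499-5p, from a myosin gene of muscle, and miR-23a-3p had each HFD plus L-NAME library below each control library, like miR-143-3p. That held for 4 of the 177 tested miRNAs. By edgeR miR-499-5p, miR-23a-3p and miR-143-3p each had an adjusted p of 0.172. By DESeq2's Wald test it was 0.00492 for miR-499-5p and 0.04655 for miR-23a-3p, both past the threshold, and 0.0800 for miR-143-3p. Picking by r over both groups favours miRNAs with the same gap between groups, so the shared gap is not a separate result. The precursor of miR-3074-2-3p lies opposite Mir24-2, and strand use in the counting is not given in the sources used here, so its count is uncertain.

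By the same measure the miRNAs most like miR-145a-5p were miR-199a-5p (r 0.84, rho 0.81), miR-3068-5p (0.78 and 0.60), miR-1983 (0.78 and 0.65), 1 predicted miRNA without a registered name (0.77 and 0.45) and miR-378a-5p (0.76 and 0.72). The first, miR-199a-5p, is a miRNA of mesenchymal cells, and in deviations from the group means its r with miR-145a-5p was 0.88. It stood at 135 ± 52.6 CPM with HFD plus L-NAME and 149 ± 87.8 CPM in control (SD, n = 5 each), with a log2 fold change of -0.13 ± 0.41 and an adjusted p of 0.889 by edgeR. The 2 lists of most similar miRNAs share 0 names. As the guides had an r of -0.60 with each other, shared names were unlikely from the start, so no conclusion is drawn from this.

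The mature sequences of 5 miRNAs set against the cluster are shown to tell them apart by seed, bases 2 to 8 from the 5′ end, in capitals (RefSeq, GRCm38.p6, 5 of 5 matched). The first is the endothelial partner of the ratios, the next 3 are among those most like miR-143-3p and the last is the one most like miR-145a-5p.
miR-126a-3p: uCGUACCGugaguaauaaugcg
miR-499-5p: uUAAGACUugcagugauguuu
miR-23a-3p: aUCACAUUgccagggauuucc
miR-34a-5p: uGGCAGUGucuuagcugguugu
miR-199a-5p: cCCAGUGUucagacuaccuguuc
The 5 seeds all differ. On that build these miRNAs lie at chr2:26591402-26591423, chr2:155622893-155622913, chr8:84208563-84208583 and chr4:150068473-150068494, all on the plus strand and in the order above, and miR-199a-5p comes from 2 precursors, at chr1:162217844-162217866 on the plus strand and chr9:21496537-21496559 on the minus strand.

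Other miRNAs known to act on the contractile or synthetic state of smooth muscle are counted here by direction, as a list chosen with earlier results known. Of 14 listed, 13 passed the filter, and 0 of these passed the adjusted threshold by edgeR. Of 6 tested on the contractile side 2 had higher and 4 lower values with HFD plus L-NAME, with a median log2 fold change of -0.10. Of 7 tested on the synthetic side 3 had higher and 4 lower values, with a median of -0.05, against -0.02 over all 177. The most abundant were miR-1a-3p, which restrains smooth muscle growth (0.48 ± 0.20), and miR-26a-5p, which favours proliferation (-0.49 ± 0.17). They were followed by miR-34a-5p, which restrains growth (-0.32 ± 0.20), and let-7d-5p (-0.12 ± 0.19; log2 fold change ± SE, adjusted p by edgeR between 0.200 and 0.821 for the 4). On the side of the synthetic state, miR-221-3p differed by -0.05 ± 0.27 and miR-21a-5p by 0.27 ± 0.20. The 7 tested on that side ran from -0.69 ± 0.42 (miR-222-3p) to 0.36 ± 0.19 (miR-24-3p). The 6 tested on the contractile side ran from -0.32 ± 0.20 (miR-34a-5p) to 0.89 ± 0.35 (miR-195a-5p). The first of these miRNAs, miR-1a-3p, comes mainly from cardiomyocytes in heart tissue.

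Marker miRNAs of other cells were read in the same libraries. The 4 red blood cell markers, all tested, had 3 lower and 1 higher value. They took 0.914% to 2.84% of counts with HFD plus L-NAME, against 1.63% to 5.54% in control. The higher one was miR-486a-5p (log2 fold change 0.51 ± 0.94), while miR-486b-5p was at -1.30 ± 0.49. In HFD plus L-NAME 1 and 4 and control 2, miR-486a-5p stood at 383, 189 and 344 CPM and miR-486b-5p at 133, 18.3 and 213. In the other libraries miR-486b-5p was the higher. Their split of directions may depend on which name the reads were given, which was not tested. The 2 endothelial markers, both tested, had 1 higher and 1 lower value and took 3.98% to 7.15% with HFD plus L-NAME and 6.04% to 7.73% in control. Of 5 leukocyte markers 3 were tested, 1 higher and 2 lower, at 0.0581% to 0.112% with HFD plus L-NAME and 0.0860% to 0.154% in control. The 4 mesenchymal markers, all tested, had 3 higher values and took 0.0777% to 1.11% with HFD plus L-NAME, against 0.0348% to 0.478% in control. By its mean level most of that share is miR-199a-3p (log2 fold change 1.01 ± 1.39), whose mature sequence in RefSeq is the same as that of the unlisted miR-199b-3p. In HFD plus L-NAME 5, control 1 and control 4, miR-199a-3p stood at 89.1, 72.5 and 36.0 CPM and miR-199b-3p at 8052, 5732 and 3451 CPM, while in the other 7 libraries miR-199b-3p was at 0 to 65.0 CPM. The low ends of both ranges and the value of miR-199a-3p therefore depend on which name the reads were given. None of these markers was at 0 in all libraries and 0 passed the adjusted threshold by edgeR. Their part in the level of miR-143-3p was not tested.

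The change of each member was recomputed under other processing. Under every setting plotted, miR-143-3p was lower with HFD plus L-NAME, by -0.42 to -0.92 on the log2 scale. The fold change of miR-145a-5p ranged from -0.14 to 0.35, and that of miR-145a-3p from -0.54 to -0.08. The value farthest from 0 for miR-143-3p came from scaling to read totals, and relative to the median of all tested miRNAs, -0.37, it was -0.55, against -0.52 with TMM.

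**Figure D5:**
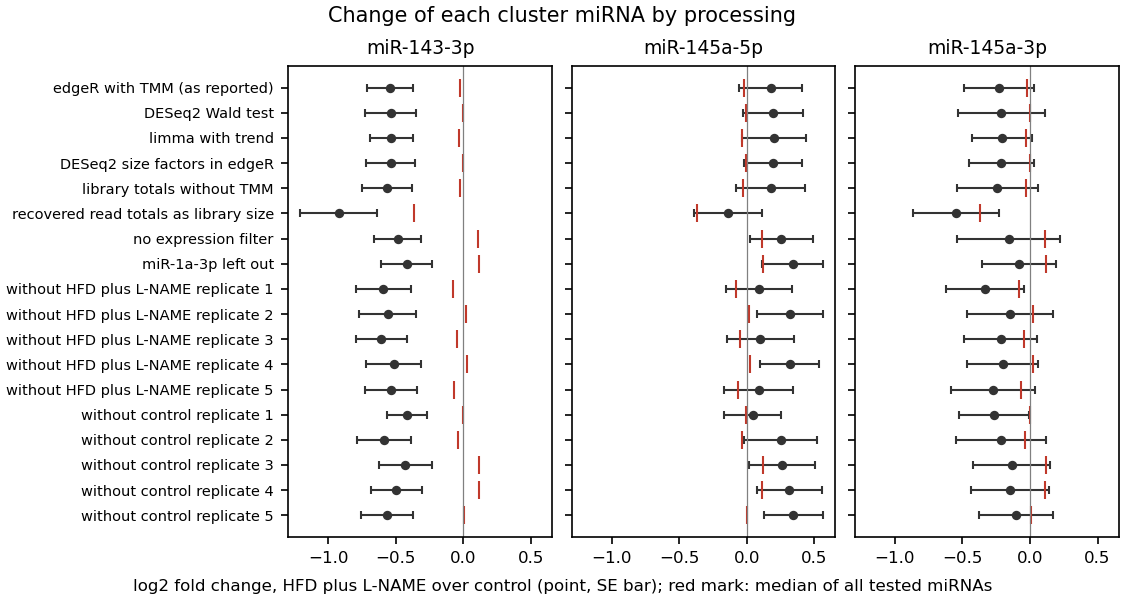
Log2 fold change of each member, HFD plus L-NAME over control (x axis, points with SE bars), under 18 ways of processing (y axis), with the median of all tested miRNAs as a red mark. For miR-143-3p all points lie at or below -0.42, while the points of miR-145a-5p lie on both sides of 0.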

How the data were processed

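Small RNA was sequenced from sEVs of heart tissue in 5 HFD plus L-NAME and 5 control libraries, made with an adaptor-ligation kit (MGIEasy) per the labels' protocols. Per mature miRNA and library, the deposited table holds a raw count of reads. It also gave a second signal by the authors, which was the count times 1 constant per library, with no unit named in the file headers. It was taken as RPM to recover read totals of 21563706 to 27493797. On that assumption miRNA counts were 1.01% to 1.55% of all reads with HFD plus L-NAME and 0.980% to 1.85% in control. Per the submitters' processing notes the build was GRCm38.p6, with aligner, counter and strand use not given in the sources used here. The 4 columns of group averages were not used.

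Groups follow the treatment label, and replicate numbers follow accession order and pair nothing. Counts were tested with edgeR 4.0.16 (TMM, default filter, robust quasi-likelihood F test, R 4.3.3) on the whole table, with Benjamini-Hochberg adjustment over 177 miRNAs, which held 99.7% of counts, and a threshold of 0.05. SE was the absolute log2 fold change over the square root of F. Log2 CPM in correlations had a prior count of 2. The alternative tools were limma 3.58.1 (with trend) and DESeq2 1.42.0. Ratios were tested by exact two-sided permutation over 252 arrangements (SciPy 1.17.1) and correlations with 100000 resamples. The count fits and the exact permutation test were checked on simulated data; the correlation tests were not. Chi-square per degree of freedom between libraries of a group was 20.2 to 130, so none was a copy. How reads that match several miRNAs were assigned is not stated, and it differed between libraries for miR-199a-3p and miR-199b-3p, which share 1 mature sequence. Between libraries the order also changed for let-7a-1-3p with let-7c-2-3p and for miR-486a-5p with miR-486b-5p. The part of read assignment in this was not tested. Intervals and floors cover counting error only, and reads without molecular identifiers are not independent molecules.

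The members, lists, ratios and alternatives were chosen with earlier results of these data known. Named miRNAs were the members, both ratio partners, the 5 most correlated with each guide, the neighbours in mean level and the 4 most abundant of the smooth muscle list. Others (miR-221-3p, miR-21a-5p, miR-222-3p, miR-24-3p, miR-195a-5p, miR-497a-5p, those in neighbouring pairs and in the list of calls) were chosen after their values were seen.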

Additional observations from a re-analysis of the deposited data

Results flagged for a closer look

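Of 34 sets of 5 libraries checked for a library far from the others (TMM-normalized CPM, shares of counts and log2 ratios), 4 held one, where chance gives about 1 in 20. In control 1, miR-143-3p took 6.87% of miRNA counts and the whole cluster 7.03%, and these 2 values are nearly the same measurement. The other control libraries had 4.12% to 4.75% for miR-143-3p. In control 5, miR-145a-3p stood at 114 TMM-normalized CPM and 0.0117% of miRNA counts, on 28 counts with an exact 95% Poisson interval from 18.6 to 40.5. In both libraries the group means reported above include the value.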

How the results depend on the processing

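The 3 members kept their direction and their side of the adjusted threshold under the alternatives, with 2 exceptions. By DESeq2's Wald test with its independent filter, chosen after seeing the data, miR-143-3p passed (-0.54, adjusted p = 0.0486), and with read totals as library size miR-145a-5p was at -0.14. The count of miRNAs past the threshold was 0 by edgeR and 3 by DESeq2's Wald test. It was 11 with DESeq2's independent filter on the 177 miRNAs, 0 with that filter on all rows (miR-143-3p at adjusted p = 0.410) and 1 without the expression filter (miR-200c-3p). The cause was not tested. With 1 library left out it ranged from 0 to 1 (miR-148a-3p without control 1, a predicted miRNA without control 2). With 1 library left out, the log2 fold change of miR-143-3p ranged from -0.61 to -0.42 (nearest to 0 without control 1). That of miR-145a-5p ranged from 0.05 to 0.35 (lowest without control 1). For miR-145a-3p it ranged from -0.33 to -0.10 (nearest to 0 without control 5). The log2 ratio of miR-143-3p to miR-145a-5p ranged from -0.89 to -0.46 and that of miR-145a-3p to miR-126a-3p from -0.0127 (without HFD plus L-NAME 5) to 0.28. The share difference ranged from -1.74 to -1.06 percentage points. The correlation of the 2 guides turned to 0.0339 without 2 libraries, and that of miR-143-3p with miR-145a-3p to -0.262 in deviations from the group means. Leaving out miR-1a-3p or the filter, or control 3 or 4, moved the median of all miRNAs to between 0.11 and 0.12. The fewest counts stood behind miR-145a-3p (15 to 33 a library) and miR-143-5p. No paired analysis was possible because the replicate numbers follow accession order and mark no shared animal or batch.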
